A study of Mus musculus with 8 samples.

Results

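Nodal, Gdf3, Tdgf1, Lefty1, Lefty2 and Smad7 are 6 genes of the Nodal branch of TGF-beta signalling, and they are described here across every library of a study of mouse embryonic stem (ES) cells exposed to an inhibitor of SUMOylation. They were chosen by symbol, through the Ensembl identifiers of the GENCODE M21 annotation on mm10. No cut on their measured values was used, but earlier results of these data were known when they were chosen. The deposited table held 36920 genes. All 6 were in it, and all 6 were among the 19173 genes that passed the filter on low counts.

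Nodal and Gdf3 are secreted ligands that signal through activin receptors, for which Tdgf1 (Cripto) is the membrane-anchored co-receptor. The receptors phosphorylate Smad2 and Smad3, which act in the nucleus with Smad4 and Foxh1 and switch on, among other genes, Nodal itself and the Lefty genes. Lefty1 and Lefty2 are secreted antagonists of Nodal signalling, and Smad7 is an intracellular inhibitor of the receptors, so the pathway produces its own brakes. ES cells make Nodal, Tdgf1 and Lefty transcripts in culture, and in the embryo the pathway patterns the epiblast and the left side of the body.

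The cells were R1, a mouse ES cell line, grown in serum with LIF, a cytokine that holds ES cells in self-renewal. All groups came from this line and shared this medium. ML-792, which blocks the SUMO-activating E1 enzyme, was given for 48 h from D1 to D3, and again for 48 h from D8 to D10, with 2 libraries at each day. The dose is labelled 2.5 mM, which is high for an enzyme inhibitor in culture, and its unit could not be checked here. D1 cells were unexposed controls. D3 cells had received the first exposure, D8 cells were labelled control but had been through the first exposure, and D10 cells had received both. No library was taken at D3 or D10 without ML-792, so effects of ML-792 and of 48 h more in culture cannot be told apart. The title of D1 replicate 2 gives D1 and its time tag gives day 0. The labels name polyA RNA as the molecule, while the extraction text describes a stranded kit for total RNA that removes ribosomal RNA. Whether replicates were separate cultures is not stated. The spread behind each p-value is therefore that of these samples alone and may be technical.

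The libraries held 21040992 to 40835518 reads in genes. The 8 ES cell markers (Pou5f1, Sox2, Nanog and others) summed to 4047 to 4307 CPM (reads scaled to a common library total) in the control libraries and to 2496 to 3423 CPM with ML-792. At an adjusted p under 0.05 (edgeR's quasi-likelihood test), 1 of the 8 fell in the first exposure and 6 in the second, and 0 rose. Sox2 held 300 to 381 CPM in the controls and 298 to 400 CPM with ML-792, and Sall4 257 to 293 and 253 to 324 CPM. The 8 markers of the 2-cell-like state, a rare state of ES cell cultures, summed to 8.28 to 97.1 CPM in the controls and to 574 to 2639 CPM with ML-792, and 8 of 8 rose in each exposure. The 8 primitive endoderm markers summed to 119 to 171 CPM at D1 and D3 and to 417 to 747 CPM at D8 and D10. Most of each sum was Lama1, with 89.0 to 148 CPM at D1 and D3 and 314 to 575 CPM at D8 and D10. In the first exposure 2 of the 8 rose and 0 fell, and in the second 0 rose and 1 fell. The 10 fibroblast markers summed to 22.5 to 40.3 CPM in all libraries, and 2 of them, Postn and Lum, had at most 3 reads in any library. These marker sums moved with the groups compared below, and their part in the results was not tested. In bulk RNA, fewer cells of a type and less RNA per cell cannot be told apart. D8 replicate 2 stood apart in the trend of its counts with the GC content of genes (Spearman's rho 0.59 against -0.378 to 0.108 in the other libraries), and results that rest on it are given without it.

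Lefty2 was the member that fell with ML-792, and the remaining 5 did not pass the test in any comparison. Over the 4 ML-792 and 4 control libraries, Lefty2 was 2.98-fold lower (log2 fold change -1.58 ± 0.38 (SE), adjusted p = 0.011, edgeR's quasi-likelihood test with Benjamini-Hochberg adjustment over all 19173 genes). So 1 of 6 members was called in that comparison, and it was lower, where 28.7% of all genes tested were called, 15.3% higher and 13.4% lower. DESeq2 called 2 of 6, Lefty2 and Nodal. Lefty2 was also the single member whose ML-792 and control values did not overlap, and 30.9% of all genes tested did not overlap. In neither exposure taken alone was a member called by edgeR: 0 of 6 for D3 against D1 (background 13% of genes, 7.92% higher and 5.1% lower; 1 member at an unadjusted p under 0.05; 0 by DESeq2) and 0 of 6 for D10 against D8 (background 16.9%, 9.27% higher and 7.65% lower; 2 members at an unadjusted p under 0.05; 0 by DESeq2). The median log2 fold change of the 6 members was -0.12 for the first exposure and -0.25 for the second, beside 0.00 and 0.03 for all genes tested.

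**Figure D1:**
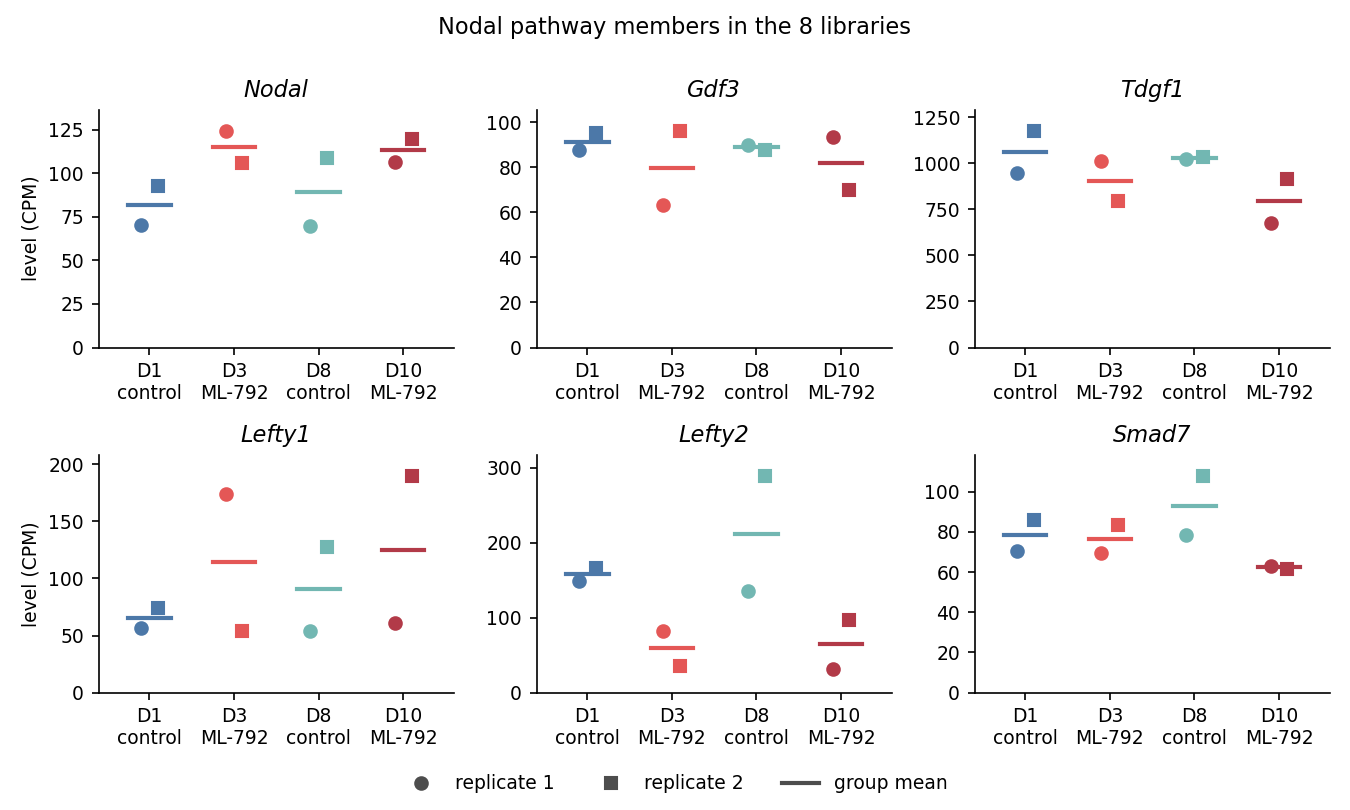
CPM of each of the 6 genes in each library, with a panel for each gene. Points are libraries, grouped by day on the horizontal axis, and short horizontal lines are the means of the 2 libraries. Lefty2 is the one gene whose ML-792 values (32.1 to 97.1 CPM) lie below all its control values (135 to 288 CPM), and the Lefty1 and Lefty2 replicates spread far apart at D3, D8 and D10.

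Nodal, the ligand after which the pathway is named, lies on chromosome 10 (mm10, 61417972 to 61425338, plus strand; ENSMUSG00000037171). Its control libraries measured 70.5 and 93.0 CPM (D1) and 69.6 and 109 CPM (D8), and its ML-792 libraries 124 and 106 CPM (D3) and 107 and 120 CPM (D10). The ML-792 values sat near or above the top of the control range, and the ranges met, since D8 replicate 2 exceeded D3 replicate 2 and D10 replicate 1. Nodal was 1.40-fold higher at D3 than at D1 (log2 fold change 0.49 ± 0.22 (SE), adjusted p = 0.19, edgeR quasi-likelihood) and 1.27-fold higher at D10 than at D8 (0.34 ± 0.22, adjusted p = 0.33), neither past the threshold. Over all libraries its log2 fold change was 0.42 ± 0.15 (adjusted p = 0.059), which missed the threshold by a small margin. Without D8 replicate 2 it was called (0.53, adjusted p = 0.0088), as it was with a stricter count filter (0.046) and by DESeq2 (0.036). Of the 16 alternatives run for this comparison, 6 called Nodal and the rest did not. The log2 fold changes ran from 0.31 to 0.66 and the adjusted p reached 0.16. A correction of the counts for GC content and gene length made Nodal a called rise in the first exposure (0.66, adjusted p = 0.018), in the second (0.64, adjusted p = 0.018) and over all libraries (0.65, adjusted p = 0.0011).

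Gdf3, a ligand of the same receptors that is also known as an inhibitor of BMPs, lies on chromosome 6 (mm10, 122605403 to 122610087, minus strand; ENSMUSG00000030117). In the controls it stood at 87.9 and 95.0 CPM (D1) and 89.9 and 87.7 CPM (D8), and with ML-792 at 63.2 and 96.0 CPM (D3) and 93.3 and 70.2 CPM (D10). The control libraries lay within a narrow band of 87.7 to 95.0 CPM, and the ML-792 libraries spread to either side of it. No difference passed the test: the log2 fold change over all libraries was -0.16 ± 0.14 (SE, adjusted p = 0.41, edgeR quasi-likelihood).

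Tdgf1, the co-receptor, lies on chromosome 9 (mm10, 110939603 to 110946158, minus strand; ENSMUSG00000032494). Before the exposures it measured 946 and 1172 CPM (D1) and 1023 and 1032 CPM (D8), and at their ends 1009 and 797 CPM (D3) and 678 and 911 CPM (D10). Of the ML-792 libraries, 3 lay below every control library, and D3 replicate 1 lay within the control range. The log2 fold change over all libraries was -0.30 ± 0.13 (SE, adjusted p = 0.11, edgeR quasi-likelihood), with -0.23 ± 0.19 in the first exposure and -0.37 ± 0.19 in the second. Those differences did not pass the test. Over all libraries Tdgf1 was called lower without D3 replicate 1 (-0.42, adjusted p = 0.043) and after the GC and length correction (-0.45, adjusted p = 0.015), and with that correction also in the second exposure (-0.57, adjusted p = 0.043). Over all libraries, 3 of the 16 alternatives called Tdgf1 and the rest did not. Their log2 fold changes ran from -0.45 to -0.20, and the adjusted p reached 0.26.

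Tdgf1 reads can be shared with a processed pseudogene, Tdgf1-ps1, which lies on chromosome 16 (mm10, 3730510 to 3731022, plus strand; ENSMUSG00000095834). The coding sequence of Tdgf1 and Tdgf1-ps1 were identical at 506 of 512 aligned bases (98.8%). The first 120 aligned bases, from GENCODE M21 transcripts, are shown to make the closeness visible, with capitals at bases that differ between them.

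Tdgf1: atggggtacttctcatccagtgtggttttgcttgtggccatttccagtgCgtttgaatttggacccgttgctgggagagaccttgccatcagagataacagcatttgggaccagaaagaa

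Tdgf1-ps1: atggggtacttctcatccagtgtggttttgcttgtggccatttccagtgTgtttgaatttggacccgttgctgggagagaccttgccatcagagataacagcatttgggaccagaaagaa

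Over the whole sequences, 50.9% of the 50-base stretches of Tdgf1-ps1 also occurred in the longest Tdgf1 transcript, and 12.5% of those of Tdgf1 in the pseudogene. The reads assigned to Tdgf1-ps1 were 8.78% to 9.39% of those assigned to Tdgf1 in the 8 libraries. The authors' treatment of reads that match several places is not given in the sources used here, so how reads were split between these loci is uncertain. The proportion hardly moved between groups: it was 9.23% and 8.99% at D1 and 9.39% and 9.39% at D10.

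The secreted inhibitors Lefty1 and Lefty2 are neighbouring genes on the plus strand of chromosome 1 (mm10): Lefty2 at 180893108 to 180899103 (ENSMUSG00000066652) and Lefty1 at 180935022 to 180938400 (ENSMUSG00000038793). Each coding sequence has 1104 bases over 4 exons, and 1014 of these (91.8%) were identical. In windows of 120 coding bases, the identity ran from 75% at bases 1 to 120, where 30 bases differ, to 99.2% at bases 781 to 900, where 1 base differs. Reads from the first of these windows carry many bases that separate the genes, and reads from the other carry at most 1. The longest run without a difference was 140 bases, from base 493 to base 632. Over whole transcripts, 17.9% of the 50-base stretches of the longest annotated Lefty1 transcript also occurred in that of Lefty2, and 11.6% of those of Lefty2 in that of Lefty1. At 100 bases the shares were 4.80% and 3.08%. Most positions of both transcripts therefore hold sequence of their own at these lengths.

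**Figure D2:**
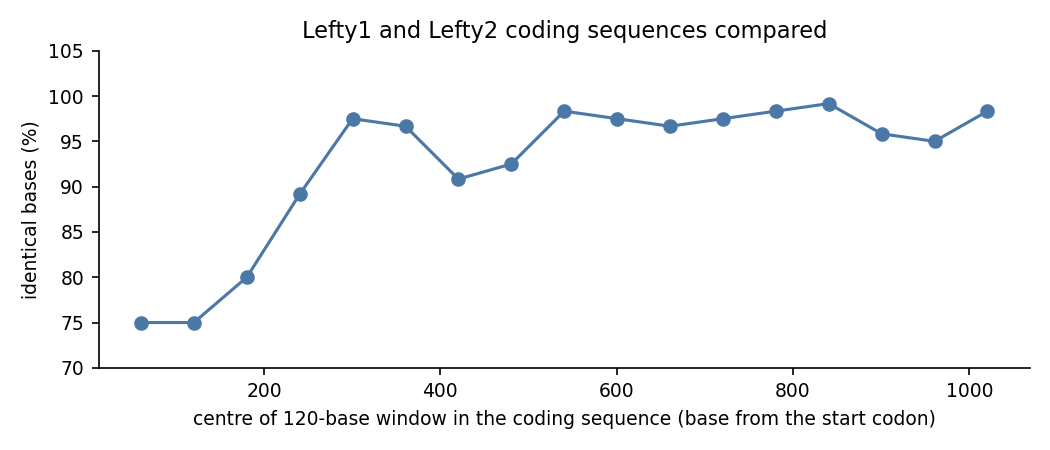
Percent identity of the Lefty1 and Lefty2 coding sequences in windows of 120 bases taken every 60 bases, against the position in the coding sequence from the start codon. Identity is lowest at the start (75%) and highest in the window of bases 781 to 900 (99.2%).

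Lefty2 went from 149 and 167 CPM (D1) to 82.6 and 36.1 CPM (D3) in the first exposure, and from 135 and 288 CPM (D8) to 32.1 and 97.1 CPM (D10) in the second. Every ML-792 library lay below every control library, and the D8 libraries lay on either side of the D1 values. The fold was 2.67 lower at D3 than at D1 (log2 fold change -1.41 ± 0.56 (SE), adjusted p = 0.14, edgeR quasi-likelihood) and 3.27 lower at D10 than at D8 (-1.71 ± 0.56, adjusted p = 0.069), and neither passed the threshold alone. Leaving out 1 library moved the first from -2.15 (without D3 replicate 1, adjusted p = 0.14) to -0.94 (without D3 replicate 2, adjusted p = 0.48). The second stood at -1.10 without D8 replicate 2 (adjusted p = 0.28) and -1.13 without D10 replicate 1 (adjusted p = 0.26), and it was called without D8 replicate 1 (-2.15, adjusted p = 0.032), without D10 replicate 2 (-2.75, adjusted p = 0.027) and after the GC and length correction (-1.59, adjusted p = 0.046). With no filter on low counts both exposures were called (-1.43 and -1.72). The adjusted p of the first was then 2.2e-13, beside 0.14 with the filter, from the same 8 libraries and a similar fold. From the D3 and D1 libraries alone the first was also called (adjusted p = 0.018). Over all libraries the fall was called in each of the 15 alternatives run, with log2 fold changes from -1.89 to -1.30. The adjusted p over those alternatives ran from 0.00018 to 0.031.

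Lefty1 did not follow this pattern. It went from 57.0 and 73.7 CPM (D1) to 174 and 54.4 CPM (D3), and from 53.9 and 128 CPM (D8) to 61.2 and 189 CPM (D10). Its highest values came from D3 replicate 1 and D10 replicate 2, its other ML-792 libraries lay near the lowest controls, and the groups overlapped. The log2 fold change was 0.80 ± 0.64 (SE, adjusted p = 0.46, edgeR quasi-likelihood) for the first exposure, 0.46 ± 0.63 (adjusted p = 0.66) for the second and 0.62 ± 0.43 (adjusted p = 0.32) over all libraries. Without D3 replicate 1 the first became -0.28, and the second became -0.59 without D10 replicate 2 and -0.026 without D8 replicate 1, so the direction turned in each exposure when a single library was left out. With no filter on low counts Lefty1 was called higher in the first exposure (adjusted p = 0.00032), although D3 replicate 2 lay below both D1 libraries.

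At D3, D8 and D10 the Lefty replicates differed more from each other than those of most genes, and Lefty1 and Lefty2 differed in the same direction within each group. Between replicates, Lefty1 differed 3.20-fold at D3, 2.37-fold (D8) and 3.09-fold (D10), and Lefty2 differed 2.29-fold, 2.13-fold and 3.02-fold. At D3, 98.9% of genes tested had a smaller difference between replicates than Lefty1 and 96.4% a smaller one than Lefty2. The library with more Lefty1 was also the one with more Lefty2 in all 4 groups. At D1 the replicates lay closer, 1.29-fold apart for Lefty1 and 1.12-fold for Lefty2, and 37.6% of genes had a smaller difference than Lefty2 there.

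The ratio of Lefty1 to Lefty2 reads was therefore taken within each library after these values were seen. For each Lefty2 read, the controls held 0.382 and 0.442 (D1) and 0.398 and 0.443 (D8) Lefty1 reads, and the ML-792 libraries 2.11 and 1.51 (D3) and 1.91 and 1.95 (D10). Every control library held more Lefty2 than Lefty1 reads, and every ML-792 library held more Lefty1 than Lefty2 reads, so the order of the paralogs by read count was inverted. On the log2 scale the ratio averaged 0.89 ± 0.21 (SD, n = 4) with ML-792 and -1.27 ± 0.11 (SD, n = 4) in the controls, a 4.46-fold difference (2.16 on the log2 scale), given as a description with no test because the ratio was chosen for this pattern. The ratio differed 4.34-fold between D3 and D1 and 4.59-fold between D10 and D8. At D8 it was back at its D1 value, with a difference of 0.03 on the log2 scale, and D10 and D3 differed by 0.11. The ratio counts reads and is not adjusted for transcript length. It does not depend on how the libraries were scaled to each other.

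**Figure D3:**
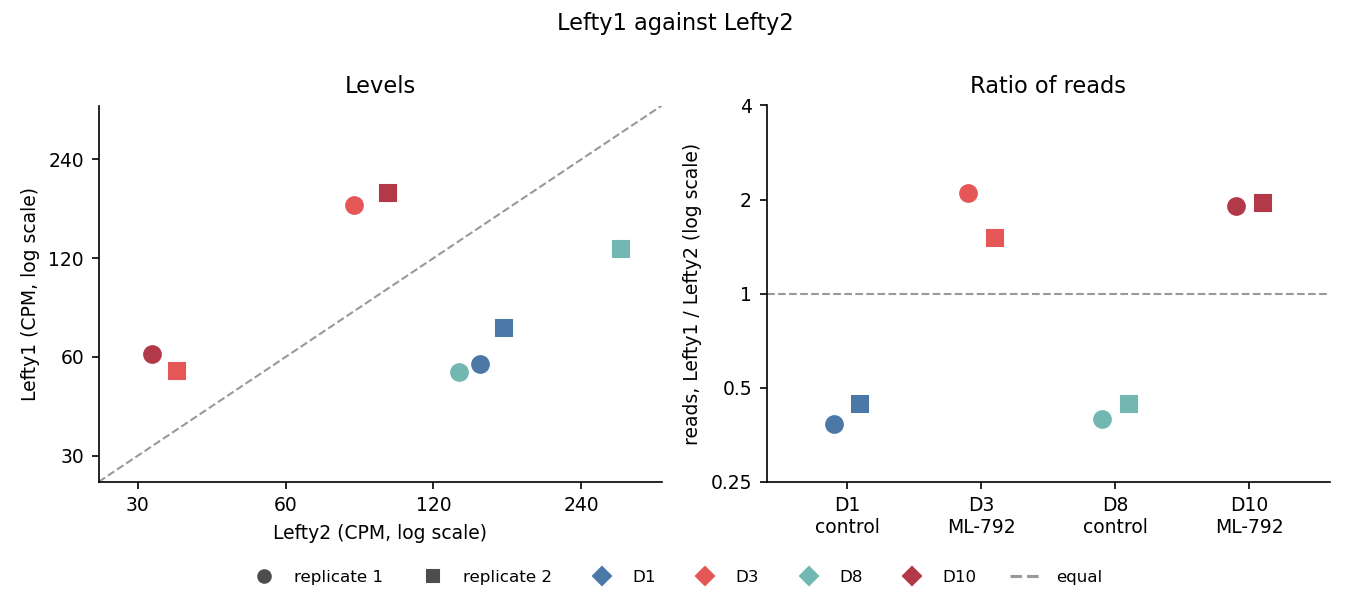
Left, Lefty1 CPM against Lefty2 CPM on log axes, and right, the ratio of Lefty1 to Lefty2 reads by day on a log axis. Points are the 8 libraries and the dashed lines mark equal values. In the ratio, the 4 control libraries lie between 0.382 and 0.443 and the 4 ML-792 libraries between 1.51 and 2.11.

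When the reads of both Lefty genes were summed and tested as 1 gene, the sum did not pass the test. Its log2 fold change was -0.37 ± 0.59 (SE, adjusted p = 0.74, edgeR quasi-likelihood) at D3 against D1, -0.67 ± 0.60 (adjusted p = 0.48) at D10 against D8 and -0.53 ± 0.40 (adjusted p = 0.35) over all libraries. In the sum, a read that matches both genes counts the same whichever of them it was assigned to.

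Smad7, the intracellular inhibitor and a target of the pathway, lies on chromosome 18 (mm10, 75367529 to 75395935, plus strand; ENSMUSG00000025880). Around the first exposure its levels were 70.4 and 86.0 CPM (D1) and 69.7 and 83.4 CPM (D3), and around the second 78.5 and 108 CPM (D8) and 63.2 and 61.5 CPM (D10). The D3 values lay within the range of D1 or just under it, and both D10 values were the lowest of the 8. The log2 fold change was -0.03 ± 0.18 (SE, adjusted p = 0.93, edgeR quasi-likelihood) in the first exposure and -0.58 ± 0.18 (adjusted p = 0.063) in the second. The second was called without D8 replicate 1 (adjusted p = 0.016) and with no filter on low counts (adjusted p = 0.014), and it shrank to -0.36 without D8 replicate 2 (adjusted p = 0.22) and to -0.17 after the GC and length correction (adjusted p = 0.40). The test of the difference between these responses gave -0.55 ± 0.26 (adjusted p = 0.9999), so the exposures were not shown to differ for Smad7.

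**Figure D4:**
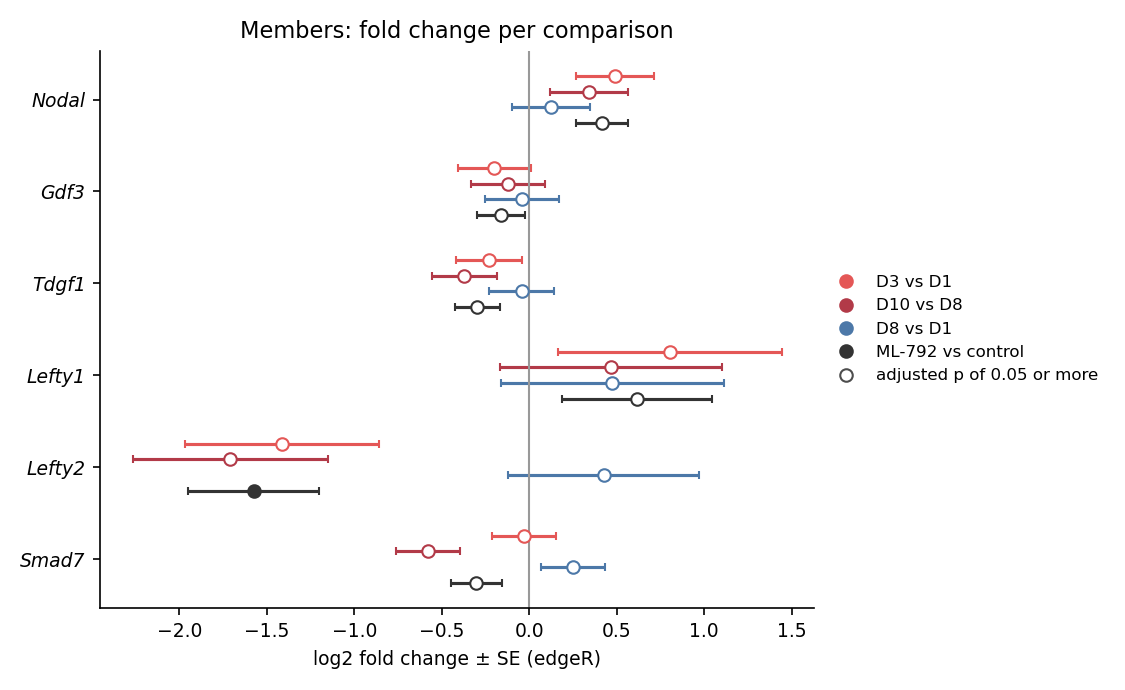
Log2 fold changes of the 6 genes with their SEs for D3 against D1, D10 against D8, D8 against D1 and ML-792 against control. Points are the estimates of edgeR's quasi-likelihood fits and filled points passed an adjusted p under 0.05. The filled point is Lefty2 over all libraries, at -1.58.

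After the first exposure ended, Lefty2 rose 3.58-fold between D3 and D8 (log2 fold change 1.84 ± 0.56 (SE), adjusted p = 0.046, edgeR quasi-likelihood), and the other 5 members did not pass the test. Nodal was called lower at D8 than at D3 in 3 of 17 alternatives. These were without D8 replicate 2 (-0.71) and after the GC and length correction, with or without the replicate number as a block. Its log2 fold changes over the 17 ran from -0.72 to -0.08. In the main fit 1 of 6, Lefty2, was called, and 22.5% of all genes tested were called in that comparison, 11.3% higher and 11.2% lower. That call was lost without D3 replicate 2 (1.36, adjusted p = 0.23), without D8 replicate 2 (1.21, adjusted p = 0.21), without D3 replicate 1 (0.065) and without D1 replicate 1 (0.073) or replicate 2 (0.076), by DESeq2 (0.062) and with a stricter filter (0.060). D8 shared its libraries with the comparison of D10 with D8, and D3 with that of D3 with D1.

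None of the 6 members was called between D8 and D1 (0 by edgeR, 0 at an unadjusted p under 0.05, 0 by DESeq2), where 0.177% of all genes were called. With SEs of 0.64 for Lefty1 and 0.54 for Lefty2, this does not show equal levels of the members. Their log2 fold changes ran from -0.04 for Tdgf1 and Gdf3 to 0.47 for Lefty1, each smaller than its SE or within 1.5 times of it. Between D10 and D3, the ends of the exposures, edgeR called 0 members and 0% of all genes (1073 genes at an unadjusted p under 0.05, of which 0 were members, and 73 by DESeq2). The difference of the responses, second minus first, likewise gave 0 members and 0% of all genes (575 genes at an unadjusted p under 0.05, of which 0 were members, and 3 by DESeq2). For Lefty2 that difference was -0.30 ± 0.77 on the log2 scale, an SE too wide to separate a like response from one that differed by a factor of 1.5.

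Levels can be compared between genes only per length, here as RPKM (CPM divided by the kilobases of exon). Tdgf1 was highest at 361 RPKM on average over the 8 libraries (258 to 447), above 99.4% of genes tested. Lefty1 followed at 56.2 RPKM (30.7 to 108), then Nodal at 47.6 (33.2 to 59.2), Lefty2 at 47.3 (12.3 to 110), Gdf3 at 35.2 (26.1 to 39.6) and Smad7 at 17.1 (13.6 to 23.8). The lowest Tdgf1 library exceeded the highest library of every other member. The ranges of Lefty1, Nodal, Lefty2 and Gdf3 overlapped, so their order is not separated by the spread over libraries, and Smad7 lay below every library of Gdf3 but not below the lowest ML-792 library of Lefty2.

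The wider pathway was described by a list of 48 genes, 47 of them in the table and 40 tested, 34 of these besides the 6 members. In the first exposure 2 of the 34 rose and 4 fell, in the second 3 rose and 5 fell, and over all libraries 3 rose and 6 fell. The last count is 26.5% of the 34, below the 28.7% of all genes called in that comparison (15.3% higher and 13.4% lower). The counts of the exposures, 17.6% and 23.5% of the 34, stand beside backgrounds of 13% and 16.9% of all genes, and the median log2 fold change of the 34 was -0.08 and 0.00 beside 0.00 and 0.03 over all genes. The genes below the test's filter were Inhba, Cfc1, Acvr1c, Cer1, Lhx1, Mesp1 and Fgf8. Gdf1 was not analysed here.

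Among the other ligands, Inhbb, the beta-B subunit of activins and inhibins, fell in each exposure. It dropped from 149 and 117 CPM (D1) to 30.5 and 48.9 CPM (D3), and from 101 and 85.7 CPM (D8) to 18.0 and 17.5 CPM (D10). The ML-792 libraries lay below the controls with a wide gap. Inhbb fell by 1.74 ± 0.23 (SE) on the log2 scale in the first exposure (adjusted p = 0.0037, edgeR quasi-likelihood) and changed by -2.40 ± 0.23 in the second (adjusted p = 0.001), and each call held in all 17 alternatives. Pcsk6, a convertase that cleaves Nodal precursors, also fell in each exposure. Its control libraries held 49.9 to 57.1 CPM and its ML-792 libraries 28.5 to 35.2 CPM, with log2 fold changes of -0.71 ± 0.16 (adjusted p = 0.021) and -0.79 ± 0.16 (adjusted p = 0.012). Furin, the other convertase tested, did not pass in either exposure (-0.35 and -0.30).

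Of the 4 receptor and co-receptor genes tested, the type I receptor gene Acvr1b was called. It held 51.5 to 63.5 CPM in the control libraries and 32.1 to 36.6 CPM with ML-792, with no overlap. It fell by 0.65 ± 0.14 (SE) on the log2 scale in the first exposure (adjusted p = 0.018, edgeR quasi-likelihood) and by 0.75 ± 0.14 in the second (adjusted p = 0.0092). With fewer libraries some calls were lost while the folds stayed near their values. Over 17 alternatives the first-exposure log2 fold change ran from -0.73 to -0.52 for Acvr1b and from -0.88 to -0.54 for Pcsk6. The first-exposure calls of Acvr1b and Pcsk6 were lost without D1 replicate 1 (adjusted p = 0.068 and 0.089), D1 replicate 2 (0.12 and 0.12) or D3 replicate 1 (0.14 and 0.16), that of Acvr1b also without D3 replicate 2 (0.072). The second-exposure calls were lost without D10 replicate 1 (0.062 and 0.084). Over all libraries, Inhbb, Pcsk6 and Acvr1b were called in all 16 alternatives. The type II receptor gene Acvr2a lay the other way without passing the test. It held 14.4 to 29.3 CPM in the controls and 29.5 to 38.4 CPM with ML-792, with no overlap. Its log2 fold change over all libraries was 0.57 ± 0.19 (adjusted p = 0.0505), and that of Acvr2b was -0.02 ± 0.13.

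Of the secreted inhibitors, Fst (follistatin), which binds activins, rose. It went from 2.14 to 3.76 CPM in the controls to 3.33 to 15.5 CPM with ML-792, and D3 replicate 1 lay within the control range. The log2 fold change was 1.52 ± 0.42 (SE, adjusted p = 0.048, edgeR quasi-likelihood) in the first exposure and 2.05 ± 0.41 (adjusted p = 0.012) in the second. Without D3 replicate 2 the first was 0.59. It was lost with a stricter filter (adjusted p = 0.054), from the D3 and D1 libraries alone (0.052) and without D1 replicate 1 (0.18), D1 replicate 2 (0.22), D3 replicate 2 (0.31), or either library of D10 (0.061 and 0.063), and the second without D8 replicate 2 (0.059). Over all libraries Fst was called in all 16 alternatives.

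Inside the cell, Foxh1, the DNA-binding partner of Smad2 and Smad3, was the transducer that passed the test in the first exposure. It held 22.95 and 31.0 CPM (D1) and 43.9 and 41.8 CPM (D3), then 33.9 and 37.3 CPM (D8) and 48.6 and 41.6 CPM (D10). Its ML-792 libraries lay above all its control libraries. The log2 fold change was 0.66 ± 0.18 (SE, adjusted p = 0.040, edgeR quasi-likelihood) in the first exposure and 0.34 ± 0.17 (adjusted p = 0.22) in the second, and the first was lost without either D1 library (0.24 and 0.065) or either D3 library (0.22 and 0.14). Of the intracellular inhibitors, Pmepa1, a target of the pathway that sequesters Smad2 and Smad3, fell in each exposure (-1.03 ± 0.17, adjusted p = 0.0077, and -0.88 ± 0.17, adjusted p = 0.011). It held 19.1 to 22.1 CPM in the controls and 9.89 to 11.7 CPM with ML-792. Each of these calls held in 15 of 17 alternatives. The first was lost without D1 replicate 2 or D3 replicate 1, and the losses of the second included that without D10 replicate 1. Without 1 library the log2 fold changes ran from -1.11 to -0.97 in the first exposure and from -0.98 to -0.80 in the second. In the second exposure Skil, a Smad co-repressor, rose (0.73 ± 0.15, adjusted p = 0.014) and Tgif1, another co-repressor, fell (-0.48 ± 0.13, adjusted p = 0.033). Skil was lost without D10 replicate 2 (0.078), from the D10 and D8 libraries alone (0.087) and after the GC and length correction (0.40, adjusted p = 0.10), and Tgif1 without any library but D8 replicate 1 (0.050 to 0.15). Over all libraries Foxh1 rose (0.49 ± 0.14, adjusted p = 0.028), a call lost without D1 replicate 2 (0.067), either library of D3 (0.074 and 0.053) or D10 replicate 1 (0.079).

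None of the 7 tested streak and node target genes passed in the first exposure (2 at an unadjusted p under 0.05, 2 by DESeq2), and 1, the mesoderm gene T, rose in the second (log2 fold change 2.08 ± 0.50 (SE), adjusted p = 0.025, edgeR quasi-likelihood). Without 1 of the 4 libraries of that comparison T was not called (0.054 to 0.089). Over all libraries T rose (2.07 ± 0.51, adjusted p = 0.013) and Gsc fell (-1.51 ± 0.50, adjusted p = 0.047), and Gsc was not called without D1 replicate 2 (0.12), D3 replicate 2 (0.11), D8 replicate 2 (0.094), D10 replicate 1 (0.10) or D10 replicate 2 (0.064). Of the 15 alternatives run for Gsc over all libraries, 6 called it, and its libraries held 0.041 to 0.53 CPM, which is few reads. T and Gsc had a mean below 1 CPM, so they lie outside the rule for named genes and are named after their values were seen. Between D3 and D8, 6 of the 34 genes rose and 0 fell, beside 11.3% of all genes that rose. They were Inhbb, Furin, Pcsk6, Acvr1b, Pmepa1 and Foxa2. Furin and Foxa2 lay near the threshold (adjusted p = 0.046 and 0.050) and were called in 9 of 17 alternatives each. They were lost without D8 replicate 2 (0.17 and 0.31) or either D3 library, Furin also without either D1 library and Foxa2 without D10 replicate 1, and Foxa2 went from 2.19 to 1.08 on the log2 scale without D8 replicate 2. Without D3 replicate 1, Acvr1b (0.053), Pmepa1 (0.053) and Pcsk6 (0.098) were lost as well, and the GC and length correction ended the calls of Inhbb (0.056) and Pcsk6 (0.089). Foxa2 is also 1 of the 8 primitive endoderm markers, and 8 of 8 of those rose between D3 and D8; their part in its rise was not tested. Between D8 and D1, edgeR called 0 of the 34 (2 at an unadjusted p under 0.05, 1 by DESeq2).

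**Figure D5:**
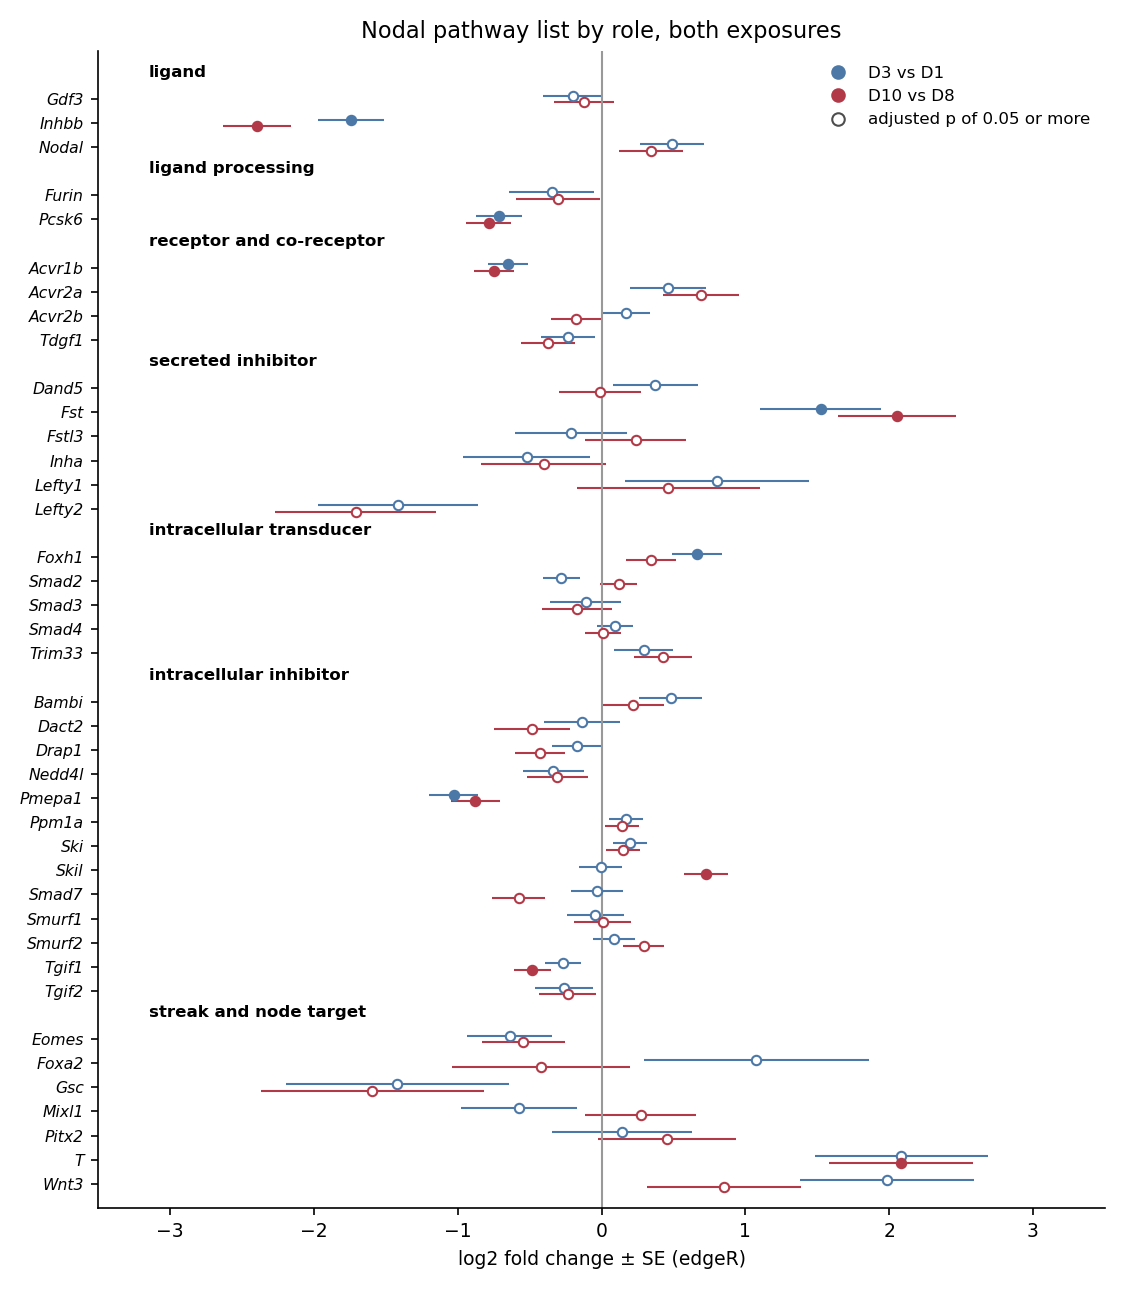
Log2 fold changes of the 40 tested genes of the wider Nodal list, arranged by role, for D3 against D1 and D10 against D8. Filled points passed an adjusted p under 0.05 in edgeR's quasi-likelihood test. Inhbb, Pcsk6, Acvr1b and Pmepa1 are lower and Fst is higher in each exposure.

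The genes whose levels ran most like each member were taken by Pearson's r of log2 CPM over the 8 libraries, given as a description, since the libraries share their groups and their depth. For Nodal they were Hsbp1 (r = 0.973), Atp6v0c-ps2 (0.973) and Otud7a (0.971). For Gdf3 they were Foxd3, a transcription factor of ES cells (0.941), Ndufa1 (0.938) and Supt7l (0.930). Tdgf1 ran most like its pseudogene Tdgf1-ps1 (0.991), then Tagap1 (0.973) and Zc3h6 (0.955). Lefty1 ran with the glucose transporter gene Slc2a1 (0.961), Stk40 (0.955) and Leng1 (0.954), and Lefty2 with Acss2, which encodes an acetyl-CoA synthetase (0.992), Necap2 (0.984) and Slc26a6 (0.981). Smad7 ran with the ribosomal protein gene Rpl13 (0.967), Cox4i1 (0.963) and Atrip (0.962). Lefty1 and Lefty2 were not in each other's lists.

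The nearest tested protein-coding genes beside the members are given in part. At 3944 bases from Lefty1, Tmem63a fell by 1.01 in the first exposure (adjusted p = 0.028) and by 1.13 in the second (adjusted p = 0.015, edgeR quasi-likelihood). Lrrc2, 5387 bases from Tdgf1, fell by 1.25 (adjusted p = 0.0094) and by 1.15 (adjusted p = 0.011), while Tdgf1 itself did not pass. Pald1, 34442 bases from Nodal, fell in the second exposure (-1.08 ± 0.20, adjusted p = 0.0099), where Nodal was 1.27-fold higher without passing the test. The neighbours of Gdf3 (Apobec1 and Dppa3) and of Smad7 (Dym and Ctif) passed the test in neither exposure. Over all libraries Ctif was called lower (-0.67 ± 0.20, adjusted p = 0.028), and Apobec1, Dppa3 and Dym were not called.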

How the data were processed

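RNA was sequenced from 8 libraries, 2 per day. The authors deposited raw counts, that is, unnormalized whole reads for each Ensembl gene. Per the submitters' processing notes, bcl2fastq 2.17.1.14, STAR 2.5.0a, featureCounts and the build mm10 were used. Not given in the sources used here were the annotation, the featureCounts version and the handling of strand and multi-mapping reads, so values of near-identical or overlapping genes are less certain.

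Symbols, positions and transcript sequences came from GENCODE M21 (mm10, GRCm38). Counts were tested in edgeR 4.0.16 (R 4.3.3) with TMM scaling and the filterByExpr filter (minimum count 10), which kept 19173 genes. The 4 groups were fitted together by quasi-likelihood, with a biological coefficient of variation of 19.6% and 4 residual degrees of freedom, and 6 contrasts were taken. ML-792 against control was a separate fit of 4 against 4. P-values are two-sided and Benjamini-Hochberg adjusted over all genes tested, with calls made below 0.05. CPM is TMM-scaled, log2 CPM used a prior count of 2, and RPKM divides CPM by the union of exons. SDs and SEs hold the spread of libraries, and without molecular identifiers reads may be copies of 1 molecule.

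From each role of the wider list, up to 3 genes per comparison were named, those with the largest change among called genes with a mean of at least 1 CPM; the 6 members, the 3 genes most like each and the nearest tested coding gene on each side were named whatever their values, leaving out predicted-gene names among the most alike. The members and lists were chosen with earlier results of these data known. Alternatives were other size factors, no or a stricter filter (minimum count 50), a replicate block, a GC and length correction (mgcv 1.9.3), leaving out each library, only the 2 groups compared, summed Lefty genes, and DESeq2 1.42.0. Some items are not reported here. The fits were also tested on simulated data, with 200 changed genes.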

Additional observations from a re-analysis of the deposited data

How the results depend on the processing

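With 2 libraries a group, counts of calls moved with the settings. Over all genes, D3 against D1 gave 2496 calls, 3847 with no low-count filter and 4063 from those groups alone. D10 against D8 gave 3244, and 1465 from those groups alone. D8 against D1 gave 34, 973 with no filter, 0 with a stricter one, 86 with the GC and length correction, 3 from those groups alone and 429 by DESeq2. D10 against D3 gave 0, 373 with no filter and 73 by DESeq2, and the difference of responses 0, 66 and 3. Replicate numbers are not stated to pair libraries, and the differences between replicates correlated at 0.101 to 0.498 between groups. With the replicate number as a block, the calls were 4187 (D3 against D1), 5298 (D10 against D8), 535 (D8 against D1), 6547 (D8 against D3) and 28 (D10 against D3). The block called Lefty2 and Smad7 for D10 against D8 (adjusted p = 0.025 and 0.013) and Nodal for ML-792 against control (0.028). With the block and the GC correction the counts over all genes were 5253, 5818, 657, 7055 and 75. Leaving out each library in turn gave 363 to 3209, 1407 to 4326, 0 to 339 and 1522 to 5826 calls for the first 4 of these. The lowest came without D1 replicate 2 (363), D10 replicate 1 (1407) and D3 replicate 1 (1522), and for D8 against D1 the count was 0 without either D1 library, D8 replicate 2 or D10 replicate 1 and 339 without D8 replicate 1. D3 against D1 fell to 588 to 1101 without any other D1 or D3 library, D10 against D8 to 1802 without D8 replicate 2 and 1980 without D10 replicate 2, and D8 against D3 to 1996 without D3 replicate 2 and 2579 without D8 replicate 2.

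Of the 6 members, D3 against D1 called 2 with no filter and 1 with the GC correction, with block and GC correction, or from those groups alone. D10 against D8 called 2 with no filter, 2 with the block, 3 with the GC correction, 3 with both, and 0 to 2 without 1 library. D8 against D3 called 0 with a stricter filter, 2 with the GC correction, 3 with block and GC correction, 0 with the Lefty genes summed, 0 by DESeq2, and 0 to 1 without 1 library. ML-792 against control called 2 with a stricter filter, 2 with the block, 3 with the GC correction, 3 with both, 0 with the Lefty genes summed, 2 by DESeq2, and 1 to 2 without 1 library. The cause of these shifts was not tested.

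Directions turned with the GC correction, without and with the block: Smad7 to 0.18 and 0.18 (D3 against D1), -0.030 and -0.030 (D8 against D1), -0.21 and -0.21 (D8 against D3) and 0.015 and 0.018 (ML-792 against control), Nodal to -0.044 and -0.043 and Tdgf1 to 0.11 and 0.12 (D8 against D1). Leaving out each library gave ranges that crossed 0. For D3 against D1 they were -0.53 to 0.054 for Gdf3, -0.28 to 1.41 for Lefty1 and -0.19 to 0.12 for Smad7. For D10 against D8 they were -0.34 to 0.045 for Gdf3 and -0.59 to 1.18 for Lefty1. For D8 against D1 they were -0.23 to 0.41 for Nodal, -0.099 to 0.015 for Gdf3, -0.19 to 0.12 for Tdgf1, -0.28 to 0.97 for Lefty1 and -0.22 to 0.87 for Lefty2. For D8 against D3 they were -0.097 to 0.49 for Gdf3 and -1.06 to 0.76 for Lefty1. The log2 Lefty ratio difference, an alternative chosen after its values were seen, was 2.10 to 2.26 without 1 library. Tdgf1 was 490 RPKM by its longest transcript.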
